A study of Mus musculus with 12 samples.

Results

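Fyn-null mice and control mice were compared 4 h after both had received ethanol, in prefrontal cortex (PFC) profiled on Affymetrix whole-genome mouse arrays. By the paper's account, its PFC samples also took in the motor cortex next to it. The comparison used 6 of the 12 arrays of the series, the 3 labelled Fyn-null ethanol (replicates 1, 2 and 3) and the 3 labelled control ethanol (replicates 1, 2 and 4), and the other 6 arrays, of saline-treated mice, served to show the same difference without ethanol. The stock of the controls was B6129SF2/J, that of the Fyn-null mice B6;129S7-Fyn-tm1Sor/J, and all were adult males obtained at 12 weeks of age. All had been habituated to injection with saline and then received a single intraperitoneal injection, of ethanol at 3 g/kg in the arrays compared here and of saline in the others. Each array held RNA pooled from 3 mice of 1 genotype and treatment and is called a pool below. The mutation is constitutive, and the control and Fyn-null mice came from separate stocks, so that genotype and stock cannot be told apart in any difference below. With 3 pools a group the precision was limited, the median standard error of a log2 difference being 0.103.

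Fyn is a non-receptor tyrosine kinase of the Src family. In neurons it lies beneath the membrane, where it phosphorylates subunits of the NMDA receptor, and in oligodendrocytes it acts downstream of adhesion molecules at the onset of myelination. Mice that lack Fyn are known for a longer loss of the righting reflex after a sedative dose of ethanol. All values are on the log2 scale of the deposited RMA signals, where 1 unit is a 2-fold change, and every difference is the mean of the Fyn-null pools minus the mean of the control pools. Probe sets whose limma p, after Benjamini-Hochberg adjustment, was under 0.05 are described as called, and groups are said not to overlap where all 3 pools of 1 group lay above all 3 of the other.

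The ethanol arrays were alike in their overall signal. Array medians lay between 5.41 and 5.48 and correlations between arrays between 0.989 and 0.997. The log2 difference between the 3' and 5' control probe sets, a sign of RNA integrity, overlapped between the groups, with a mean of 0.037 in control and 0.067 in Fyn-null pools for Gapdh (exact permutation test, two-sided p = 0.6) and of 0.848 and 0.899 for Actb (p = 0.7, where 3 against 3 pools cannot go below 0.1). Markers of cortical excitatory neurons (Slc17a7, Tbr1, Neurod6) and of interneurons (Gad1, Gad2, Pvalb, Sst) passed the filter on low values in these PFC samples. So did Drd1, which marks striatal neurons but is also made in cortex. Of choroid plexus markers Ttr passed and Kl did not, and of red cell markers Alas2 passed and Hba-a1 did not. Of 24770 probe sets tested, 57.4% were higher in Fyn-null pools, with a median of 0.028.

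Fyn itself was measured by 2 probe sets. In the one with the higher signal (1417558_at), the log2 values were 9.70, 9.45 and 9.33 in the control pools (replicates 1, 2 and 4) and 9.01, 8.75 and 8.77 in the Fyn-null pools (replicates 1, 2 and 3). The groups did not overlap and the difference was -0.65 (standard error 0.12, adjusted p = 0.0506, limma), just outside the threshold. The other probe set of Fyn was 7.95, 7.80 and 7.94 in control pools and 7.81, 7.62 and 7.62 in Fyn-null pools. Its groups overlapped, at -0.22 (adjusted p = 0.334). The signal of the brighter probe set was thus lower in every Fyn-null pool, though still above the filter on low values, and the position of these probe sets relative to the disruption is not known from the sources used here.

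Between the ethanol groups limma called 193 of 24770 probe sets (0.779%), 97 higher in Fyn-null mice (0.392%) and 96 lower (0.388%). The falls were the larger, since 49 of the 68 called differences beyond 1 log2 unit were below 0. Called differences ranged in size from 0.46 to 3.03 with a median of 0.82. The groups did not overlap in any of the 193, which rests on the same values as the calls and adds nothing to them. Over all genes, groups did not overlap in 16.0% with Fyn-null higher and in 4.94% with Fyn-null lower. Platform annotation gave 1 gene symbol to 149 of them, for 140 genes. Counting each gene by the probe set with its highest mean, 64 of 12323 genes were called (0.519%), 39 higher (0.316%) and 25 lower (0.203%). The count depended on which pools entered the fit. It was 84 probe sets without control ethanol replicate 2 and 512 without control ethanol replicate 4, and 36, 39 and 36 without Fyn-null ethanol replicates 1, 2 and 3. With all 12 arrays and 4 group means limma called 0, with 3380 probe sets at an unadjusted p under 0.05. That fit takes its estimate of spread from the saline pools too, and the labels of 2 of them, replicate 2 of control saline and replicate 4 of Fyn-null saline, are in doubt.

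**Figure D1:**
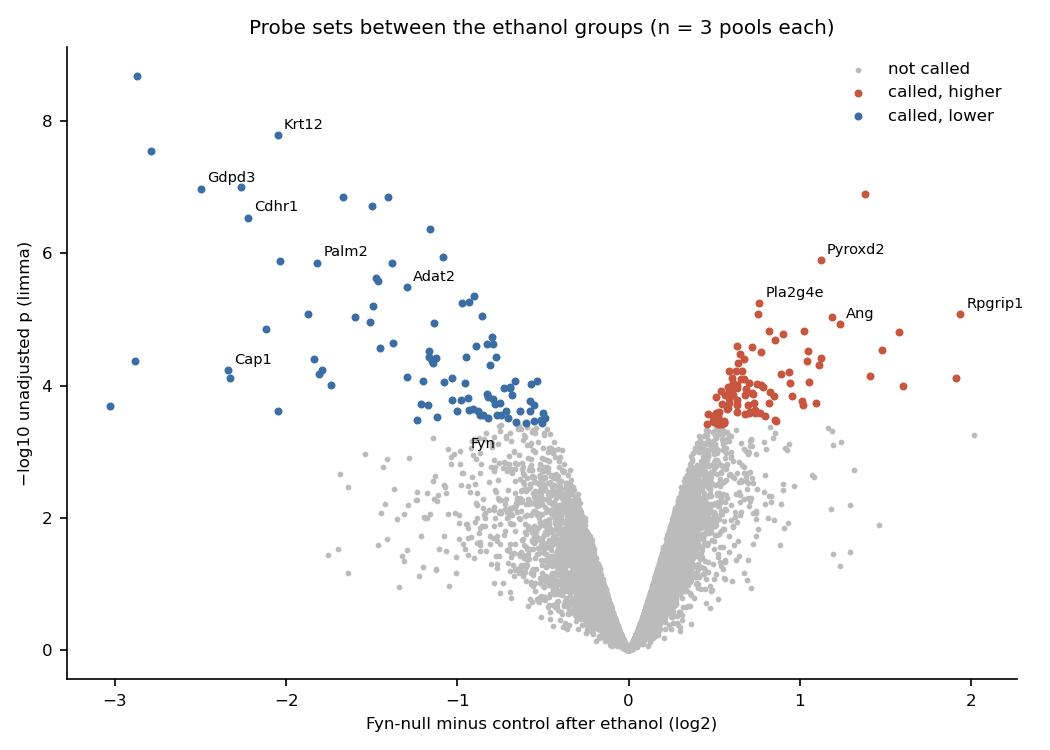
Each point is 1 of 24770 probe sets, with the log2 difference between Fyn-null and control pools after ethanol on the horizontal axis and −log10 of the unadjusted limma p on the vertical axis (n = 3 pools a group). The 96 called falls (blue) reach -3.03 and include Krt12, Gdpd3 and Cdhr1, the 97 called rises (red) include Rpgrip1 and Pyroxd2, and Fyn sits among the uncalled probe sets just under the called ones.

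Several of the largest falls were far beyond the spread between pools. Gdpd3 encodes an enzyme that releases lysophosphatidic acid from lysophospholipids. Its log2 values were 7.09, 6.48 and 6.81 in the control pools and 4.52, 4.12 and 4.24 in the Fyn-null pools, a gap between the groups of over 1 unit. The difference was -2.50 (standard error 0.16, adjusted p = 0.000435, limma). Cdhr1, a cadherin of photoreceptors and of olfactory bulb neurons, was 7.45, 7.03 and 6.88 in control and 5.10, 4.66 and 4.93 in Fyn-null pools. Every Fyn-null pool lay well below the control pools, at -2.22 (standard error 0.16, adjusted p = 0.000713). Krt12, a keratin first described in cornea, was 7.53, 7.83 and 7.56 against 5.48, 5.63 and 5.65. Its spread within groups was small and its difference was -2.05 (standard error 0.11, adjusted p = 0.000201). Palm2, a paralemmin that attaches to the plasma membrane, was 8.18, 8.26 and 7.81 against 6.31, 6.51 and 5.98, with a difference of -1.82 (standard error 0.16, adjusted p = 0.00213). Adat2, a subunit of the enzyme that edits adenosine in tRNA, was 6.81, 7.04 and 7.12 against 5.47, 5.81 and 5.81, at -1.29 (adjusted p = 0.00417). These 5 genes stayed called without each ethanol pool in turn. Among the called genes, the Fyn-null mean lay under the lowest mean that passed the filter on low values (5.15) in 4, namely Gdpd3, Cdhr1, A330076H08Rik and Rbm45, and the control mean did so in 5, namely Pyroxd2, Ang, Mamdc2, Mcm6 and A030001D20Rik. Over all 193 called probe sets the Fyn-null mean lay that low in 18 and the control mean in 13. The size of all these differences is uncertain, since 1 group lay that low.

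Other large falls came with wide spread among the control pools. A330076H08Rik was at -3.03 (standard error 0.50, adjusted p = 0.0351, limma), but its control values were 8.63, 6.67 and 6.27, with replicate 1 far above the others, and its Fyn-null values 4.26, 4.21 and 4.02. The Fyn-null pools lay under the lowest mean that passed the filter, so that the size of this difference is uncertain. Serpina3n, a secreted protease inhibitor that reactive astrocytes make, was 8.28, 7.54 and 9.27 in control and 6.23, 6.39 and 6.33 in Fyn-null pools. Here too the control pools varied more than the Fyn-null pools, and the difference was -2.05 (standard error 0.35, adjusted p = 0.0398). Cap1, which binds actin monomers, was 7.87, 9.41 and 8.70 against 6.23, 6.10 and 6.63, at -2.34 (adjusted p = 0.0211). Gnb1, a G protein beta subunit, was 10.26, 11.25 and 11.29 against 8.92, 8.64 and 8.88, at -2.12 (adjusted p = 0.01). For A330076H08Rik, Serpina3n, Cap1 and Gnb1 the call was lost when 1 or more of the ethanol pools was left out. The remaining large falls were Prdm2, a histone methyltransferase, at -1.45, the RNA-binding protein gene Rbm45 at -0.98 and 4632415L05Rik at -0.93. With them were Mctp1, a calcium-binding membrane protein, at -0.91, and Rspry1 at -0.88, and adjusted p ran from 0.014 to 0.0398 over these genes. Each of them also lost its call without 1 or more of the ethanol pools. The other probe set of 4632415L05Rik was -0.23 (adjusted p = 0.368). Ccl27a, a chemokine gene, fell by 0.97 on the log2 scale and kept its call without each pool. Its probe set carries the suffix of sets that can bind related transcripts, and near-identical copies of this gene exist in mouse, so that its signal cannot be assigned with certainty. Among probe sets without a gene symbol, 1447937_a_at (-2.87) and 1447939_a_at (-2.79) differed most. The Fyn-null pools of 1447937_a_at (5.18, 4.91 and 5.21) lay about the lowest mean that passed the filter (5.15), so that its size is uncertain.

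**Figure D2:**
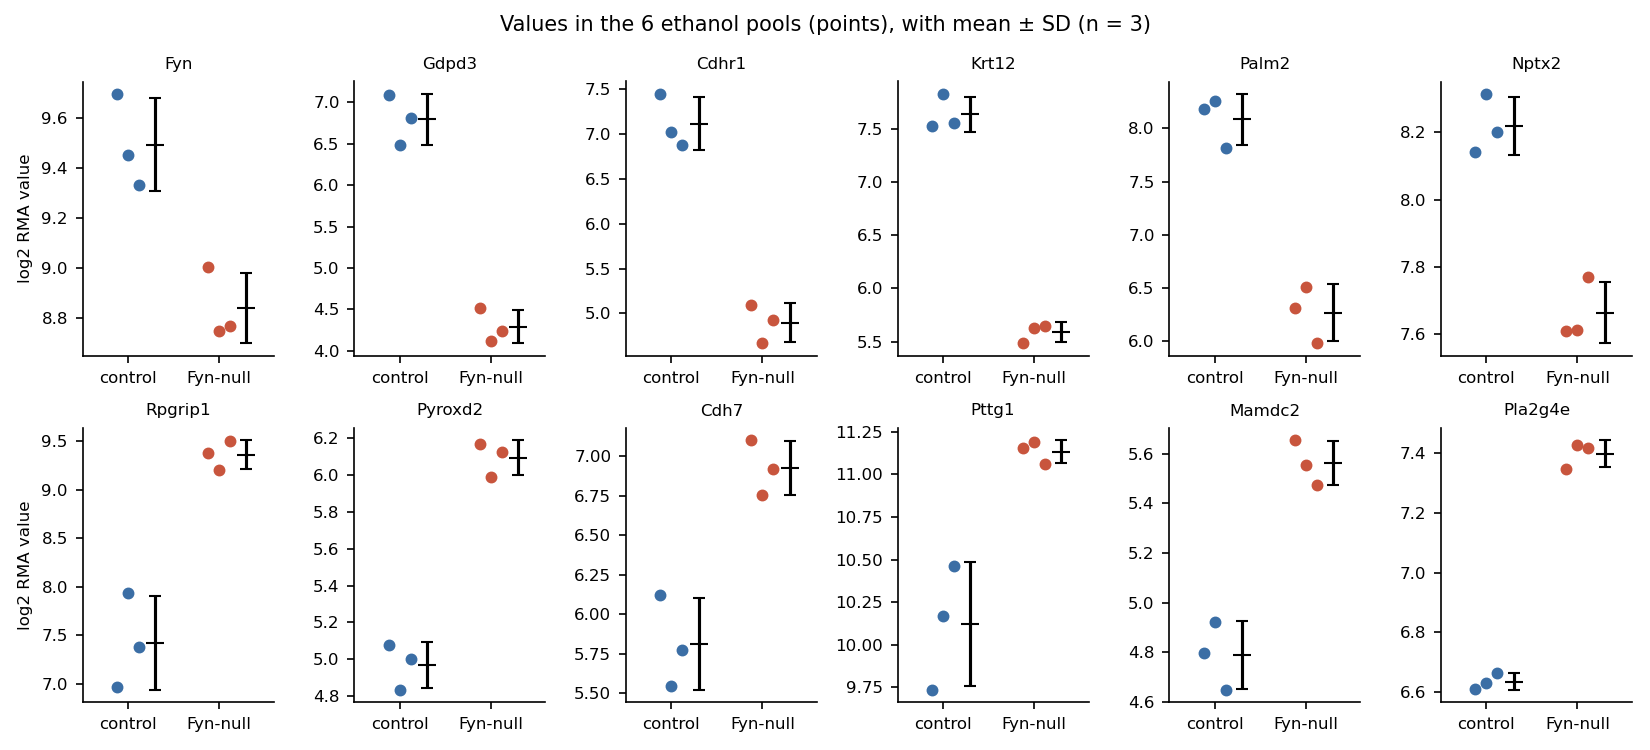
Log2 RMA value of 12 genes in each of the 3 control (blue) and 3 Fyn-null (red) ethanol pools, each gene on its own axis, with mean ± SD beside the points (n = 3). The groups do not overlap in any panel, with Gdpd3 at 6.48 to 7.09 in control and 4.12 to 4.52 in Fyn-null pools and Rpgrip1 at 6.96 to 7.93 and 9.21 to 9.50.

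The rises were smaller. Rpgrip1, a protein of the photoreceptor connecting cilium, led them, with log2 values of 6.96, 7.93 and 7.37 in control and 9.38, 9.21 and 9.50 in Fyn-null pools. All Fyn-null values lay over 1 unit above the highest control value, and the difference was 1.94 (standard error 0.21, adjusted p = 0.00757, limma). Pyroxd2, named for its oxidoreductase domain, was 5.08, 4.83 and 5.00 against 6.17, 5.99 and 6.13, with the control pools under the lowest mean that passed the filter (5.15). Its difference was 1.12 (standard error 0.098, adjusted p = 0.00213) and it stayed called without each pool in turn. Cdh7, a classical cadherin, was 6.12, 5.54 and 5.77 against 7.10, 6.76 and 6.92, and rose by 1.11 by its brightest probe set (adjusted p = 0.0182). Its other probe sets were 0.06, with overlapping groups, and 0.59, neither called. Pcdhb9, of the clustered protocadherins whose members resemble one another closely, was 6.69, 6.39 and 6.44 against 7.34, 7.34 and 7.53, and rose by 0.90 (adjusted p = 0.0109). Pcdh17, another protocadherin gene, rose by 0.82 (adjusted p = 0.0286).

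Pla2g4e, a cytosolic phospholipase A2, was 6.61, 6.63 and 6.66 in control and 7.35, 7.43 and 7.42 in Fyn-null pools, and rose by 0.76 (standard error 0.079, adjusted p = 0.00613, limma). Pttg1, the securin that holds back sister chromatid separation, was 9.73, 10.17 and 10.46 against 11.15, 11.19 and 11.06, with control replicate 1 the lowest, and rose by 1.01 (adjusted p = 0.0337). Pmaip1, the pro-apoptotic protein Noxa, was 5.37, 4.96 and 5.14 against 6.12, 5.76 and 5.87, and rose by 0.77 (adjusted p = 0.0408). Taf15 and Rbm28, both RNA-binding proteins, rose by 0.89 and 0.75. Mamdc2, a proteoglycan, rose by 0.77, the Golgi membrane protein gene Tmem87a by 1.13 and Gm26782 by 1.41. Ang, the ribonuclease angiogenin, rose by 1.23 (adjusted p = 0.00879), by a probe set of the kind that can bind other transcripts of the angiogenin family. A probe set that the annotation assigns to Mir1931 was also among the 15 largest rises and is given no value, since its match to the microRNA was not checked. Other than Pyroxd2, each of these rises lost its call without 1 or more of the ethanol pools.

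Beyond these, 24 rises (0.49 to 0.72) and 10 falls (0.49 to 0.83 in size) were called, of which the next were chosen for naming after their values were seen. Alad, the second enzyme of heme synthesis, was 7.47, 7.43 and 7.57 in control and 8.20, 8.05 and 8.16 in Fyn-null pools, and rose by 0.64 (adjusted p = 0.0178, limma). Xdh, the xanthine dehydrogenase of purine breakdown, was 5.84, 5.88 and 5.86 against 6.44, 6.41 and 6.61, with no control pool near a Fyn-null pool, and rose by 0.63 (adjusted p = 0.0211). Acer2, an alkaline ceramidase, rose by 0.60, Inmt, an indolamine methyltransferase, by 0.60, the replication helicase gene Mcm6 by 0.72, and Esco1, which acetylates cohesin, by 0.70. A further clustered protocadherin, Pcdhb12, rose by 0.66. Among the falls, Esyt2, which tethers the endoplasmic reticulum to the plasma membrane, fell by 0.83, Mapre1, a protein of growing microtubule ends, fell by 0.68, and Rab3gap1, which acts on the synaptic vesicle GTPase Rab3, fell by 0.57. Rab3gap1 was 8.93, 8.92 and 8.76 in control and 8.39, 8.22 and 8.28 in Fyn-null pools (adjusted p = 0.0332). Of the 24 rises and 10 falls, none stayed called without each ethanol pool in turn.

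Different probe sets of a gene often disagreed. Of the 140 genes with a called probe set, 97 had more than 1 probe set tested, and in 88 of these 1 probe set was called. All probe sets lay on the same side of 0 in 49 of the 97. The 185 uncalled probe sets of these genes had a median of 0.07 when signed by the called one, and 121 were on its side. Prdm2, Rspry1, Pyroxd2, Nptx2, Pcdh17 and Rbm28 each had a further tested probe set that was not called. The genes named in this paragraph outside the lists of the largest changes were chosen after their values were seen. Genes in which the probe sets moved together included Cap1 (-2.34 and -2.88), Gnb1 (-2.12 and -1.24), Krt12 (-2.05 and -2.03) and Pttg1 (1.01 and 1.10 called, 0.67 not). The second set of Cap1 had a Fyn-null mean of 4.98, under the lowest mean that passed the filter (5.15), so that its size is uncertain. Camk2a, the alpha subunit of the calcium-calmodulin kinase of the postsynaptic density, had 2 called probe sets, at -1.79 and -1.81, a further pair at -0.76 and -0.98 whose groups did not overlap but which did not pass, and 2 near 0 (-0.17 and 0.05). Its signal in the called probe set 1442707_at was 10.47, 10.34 and 9.51 in control and 8.42, 8.58 and 7.96 in Fyn-null pools. Gabra2, which encodes the alpha2 subunit of the GABA-A receptor, was lower in all 3 of its probe sets, at -0.76, -0.89 and -0.90, and the last passed (adjusted p = 0.00549, limma), also without each pool in turn. The called probe set of Gabra2 was 7.22, 7.35 and 7.17 in control and 6.44, 6.31 and 6.28 in Fyn-null pools. Src, the kinase that gives the family of Fyn its name, was 0.34 by the probe set with the higher mean (adjusted p = 0.204) and 0.64 by the other, which passed (adjusted p = 0.0255). The called probe set of Src was 7.21, 7.01 and 7.11 in control and 7.83, 7.62 and 7.78 in Fyn-null pools.

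In 9 genes with a called probe set, probe sets with groups that did not overlap lay on opposite sides of 0, and no direction can be given for them. The genes named here were likewise chosen after their values were seen. Kcnj9, the GIRK3 subunit of G protein-gated potassium channels, was 0.44 by its brightest probe set (adjusted p = 0.06, limma) and -1.46 by the next (adjusted p = 0.00357), with the other 2 at -0.44 and -0.10. That second set was 8.80, 8.78 and 8.52 in control and 7.44, 6.95 and 7.31 in Fyn-null pools. Xaf1, an interferon-induced gene, was 0.45 and -1.87 (adjusted p = 0.00757 for the second), and Camk4, a calcium-calmodulin kinase of the nucleus, 0.44 and -0.66 (adjusted p = 0.0249 for the second). The second set of Xaf1 was 4.11, 4.44 and 4.47 in Fyn-null pools, under the lowest mean that passed the filter (5.15). Vamp2, Gad2, Rph3a and Nrxn3 were not among these 9. Vamp2, a SNARE of synaptic vesicles, was -0.81 (adjusted p = 0.0182) and -0.10 by its brighter set. Gad2, which makes GABA, was -0.73 (adjusted p = 0.0262) and 0.06. Rph3a, a vesicle protein that binds Rab3, was -1.29 (adjusted p = 0.0239) and -0.30. Nrxn3, a presynaptic adhesion molecule, was -0.75 by 1 of 5 probe sets (adjusted p = 0.0345) and -0.33 to 0.02 by the others. In other genes 1 probe set differed while the best expressed ones did not. Mapk8, the kinase Jnk1, was -1.67 by 1 probe set (adjusted p = 0.000435) and between -0.14 and 0.15 by the other 3. Ro60, an RNA-binding autoantigen, was -2.27 by 1 probe set and between -0.27 and 0.12 by the other 3. Tia1, an RNA-binding protein of stress granules, was 1.38 by 1 of 5 and 0.06 to 0.36 by the others. Gfap, the intermediate filament of astrocytes, was 1.05 by the dimmest of 3 (adjusted p = 0.0149) and 0.03 by the brightest. Control pools in that dimmest set were at 5.15, 4.66 and 4.86, so that the size of its rise is uncertain.

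**Figure D3:**
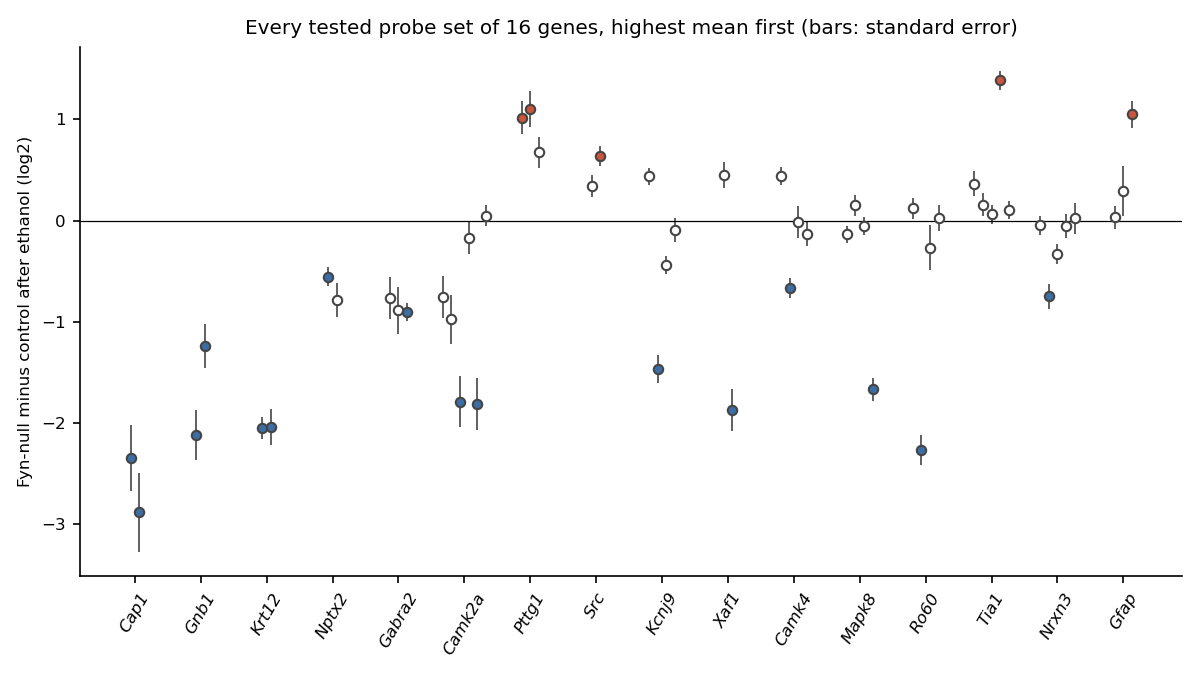
Log2 difference between Fyn-null and control pools after ethanol (± standard error from limma, n = 3 pools a group) for every tested probe set of 16 genes, ordered within a gene from the highest to the lowest mean. Filled points were called. Probe sets of Cap1, Krt12 and Gabra2 lie together (Gabra2 at -0.76, -0.89 and -0.90), whereas those of Kcnj9 lie at 0.44, -1.46, -0.44 and -0.10.

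Genes of cholesterol and fatty acid synthesis, which supply lipids for membranes and myelin, were higher in Fyn-null pools as a group, with no member called. Of 26 measured genes, 24 lay above 0 and the median log2 difference was 0.28, beside 0.044 over all 12323 genes, of which 63.0% lay above 0. Groups did not overlap, with Fyn-null higher, in 19 of the 26 (73.1%), beside 16.0% of all genes, and they did so with Fyn-null lower in 0, beside 4.94%. The steps of the sterol pathway were covered from end to end. Hmgcs1, which commits acetyl units to the pathway, was 0.41 (adjusted p = 0.168, limma). Mvd and Idi1, which turn mevalonate into isoprene units, were 0.51 each (adjusted p = 0.0709 and 0.0668). Sqle and Lss, which close squalene into lanosterol, were 0.29 and 0.54 (adjusted p = 0.206 and 0.0574). Lss was 6.95, 6.80 and 6.86 in control and 7.57, 7.26 and 7.41 in Fyn-null pools, so that the lowest Fyn-null pool lay above the highest control pool. Cyp51, which demethylates lanosterol, was 7.62, 7.67 and 7.71 against 8.26, 8.01 and 8.24, at 0.50 (adjusted p = 0.0585). Hsd17b7 and Sc5d, of the later sterol steps, were 0.47 and 0.41, but Dhcr7, which makes cholesterol from its last precursor, was -0.07. The regulators Srebf1 and Srebf2 were 0.0041 and 0.17, and the fatty acid synthesis genes Fasn and Acly 0.02 and 0.02, all with overlapping groups. Mean level of the list was 8.36, 8.29 and 8.32 in control ethanol and 8.64, 8.50 and 8.62 in Fyn-null ethanol pools. In saline pools it was 8.29 to 8.48 in controls and 8.39 to 8.49 in Fyn-null mice, and over the 6 saline pools the median difference was 0.069. Without both pools of doubtful label the levels were 8.29 and 8.37 in controls and 8.49 and 8.48 in Fyn-null mice, with a median difference of 0.14. The median after ethanol lay between 0.157 and 0.317 without each ethanol pool and with all probe sets of a gene averaged.

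Microglial and vascular genes were also higher. Of 18 measured microglia genes, 16 lay above 0 with a median of 0.28, 8 had groups that did not overlap with Fyn-null higher (44.4%, beside 16.0% of all genes) and 1 with Fyn-null lower. Tyrobp, an adaptor of microglial receptors, was 7.36, 7.33 and 7.55 in control and 7.89, 7.83 and 7.91 in Fyn-null pools, at 0.46 (adjusted p = 0.0636, limma). The partner receptor Trem2 was 0.32, the complement genes C1qa, C1qb and C1qc were 0.28, 0.22 and 0.31, and Olfml3 was 0.41, none of them called. The defining homeostatic markers Cx3cr1, P2ry12 and Tmem119 were -0.09, 0.05 and -0.09. Of 21 measured genes of endothelium and pericytes, 20 lay above 0 with a median of 0.22 and 8 had groups that did not overlap with Fyn-null higher (38.1%). Vtn, vitronectin of pericytes, was 0.45 (adjusted p = 0.059), Cldn5, the claudin of brain endothelial tight junctions, 0.37 (adjusted p = 0.136), and Vwf, which endothelium secretes, 0.37 (adjusted p = 0.18).

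For both cell types the control ethanol pools had the lowest mean levels. Some Fyn-null ethanol pools also lay below every saline pool. The microglia list was at 7.03, 6.87 and 7.03 in control ethanol and 7.29, 7.13 and 7.21 in Fyn-null ethanol pools, while the saline pools of both genotypes were at 7.25 to 7.39 (7.27 to 7.39 without both pools of doubtful label). The endothelial list was at 7.18, 7.16 and 7.23 in control ethanol and 7.45, 7.31 and 7.43 in Fyn-null ethanol pools, with the saline pools at 7.42 to 7.61, with and without those pools. In these bulk samples fewer cells of a type and less RNA per cell cannot be told apart. Oligodendrocyte precursor genes had a median of 0.07 over 10 genes, and groups did not overlap with Fyn-null higher in 4 (40.0%, beside 16.0% of all genes) and with Fyn-null lower in 0. The mean level of that list was 7.08, 7.06 and 7.07 in control ethanol and 7.23, 7.13 and 7.15 in Fyn-null ethanol pools, which did not overlap. Astrocyte genes had a median of 0.11 over 19, with Fyn-null higher without overlap in 5 (26.3%) and lower in 1, and meningeal and fibroblast genes 0.15 over 13, with 3 higher (23.1%) and 0 lower. None of these genes was called. Of the 11 blood genes 2 passed the filter, Hbb-b2 at -0.45 and Alas2 at -0.24, neither called. Their mean level was 5.96, 5.90 and 5.81 in control ethanol and 5.60, 5.55 and 5.48 in Fyn-null ethanol pools. These groups did not overlap, but the mean rests on 2 genes. The groups of Alas2 alone overlapped, and Hbb-b2 had a Fyn-null mean of 4.98, under the lowest mean that passed the filter (5.15). What part these lists have in the differences of other genes was not tested.

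**Figure D4:**
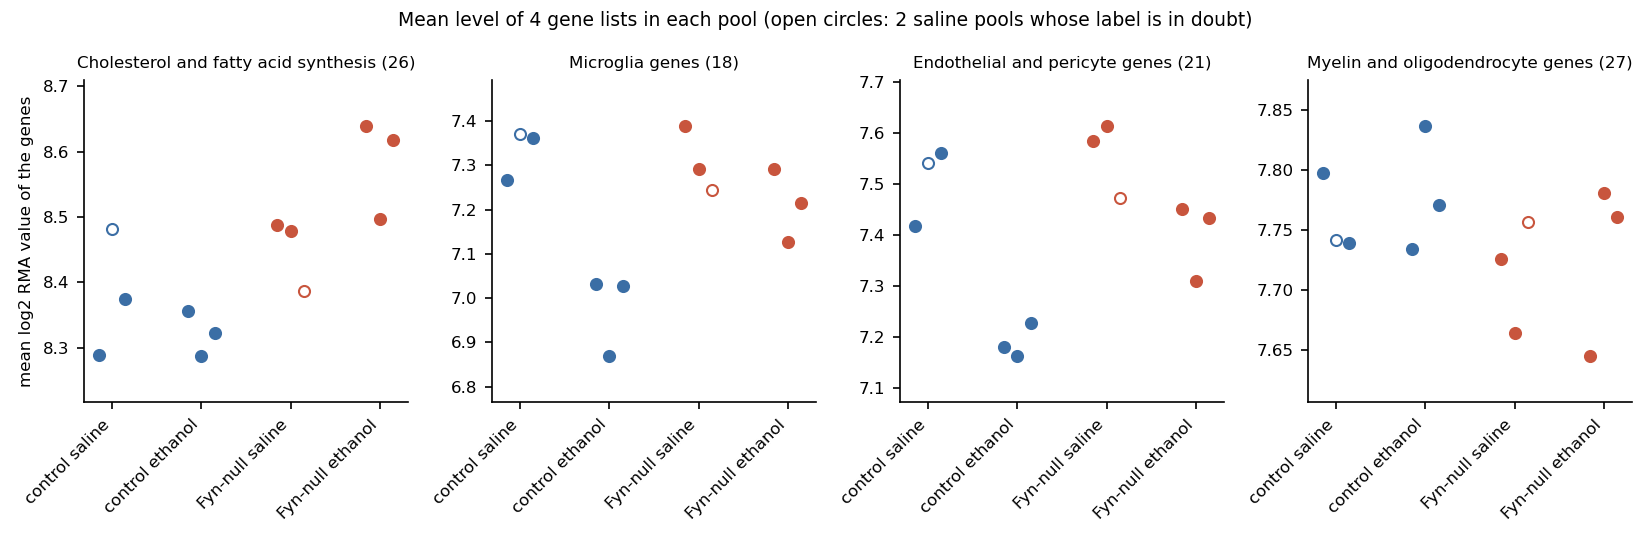
Mean log2 RMA value of the measured genes of 4 lists in each of the 12 pools, by group (numbers of genes in parentheses, each list on its own axis), with open circles for the 2 saline pools of doubtful label. Control ethanol pools hold the 3 lowest microglial levels (6.87 to 7.03) and the 3 lowest endothelial levels (7.16 to 7.23), and the ethanol groups do not overlap for cholesterol genes (8.29 to 8.36 and 8.50 to 8.64) but do for myelin genes.

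The list of myelin and oligodendrocyte genes had a median below 0. Of 27 measured, 9 lay above 0 and the median was -0.07, beside 0.044 over all genes. None was called, and groups did not overlap with Fyn-null lower in 4 (14.8%, beside 4.94% of all genes) and with Fyn-null higher in 0. Ugt8a, which makes the galactolipids of myelin, was 7.33, 7.56 and 7.38 in control and 6.91, 7.01 and 6.99 in Fyn-null pools, at -0.45 (adjusted p = 0.0716, limma). Mbp, myelin basic protein, was 12.26, 12.33 and 12.16 against 11.71, 12.02 and 12.01, at -0.34 (adjusted p = 0.202). The groups of Mobp, Mal, Mag and Mog overlapped, at -0.10, -0.07, -0.19 and -0.13.

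Genes of the Fyn pathway, of synapses and of ion channels had 0 calls by their best expressed probe sets, beside 0.519% of all genes. In lists this short, 0 calls does not set them apart from all genes. Of the Src family, 3 of 9 genes passed the filter, Fyn, Src and Fgr (-0.06), with 0 called. Of 24 partners and substrates of Fyn, 0 were called and the median was -0.01, with Ptprf, a receptor tyrosine phosphatase, the nearest to a call at 0.51 (adjusted p = 0.096, limma). The 8 measured subunits of NMDA and AMPA receptors had a median of 0.13 and 0 called. Grin2b, the NMDA receptor subunit that Fyn phosphorylates, was 8.53, 8.50 and 9.04 in control and 9.17, 9.37 and 9.01 in Fyn-null pools. These groups overlapped through control replicate 4, and the difference was 0.49 (adjusted p = 0.204). Metabotropic glutamate receptors, GABA-A receptor subunits, postsynaptic scaffolds and presynaptic vesicle genes had medians of 0.014, -0.0032, -0.027 and -0.018, each with 0 called by the best expressed probe set. Groups did not overlap with Fyn-null higher in 16.0% of all genes and with Fyn-null lower in 4.94%. Those shares were 22.2% and 11.1% for GABA-A subunits and 8.33% and 16.7% for scaffolds. For presynaptic genes both were 10.5%, and for metabotropic receptors both were 0. Each rests on few genes. Slc17a7, the vesicular glutamate transporter of cortical excitatory neurons, was 10.42, 10.54 and 10.46 against 10.20, 9.85 and 9.94, at -0.48 (adjusted p = 0.0964). Of ion channels, potassium channel genes were at a median of 0.06 over 30 and voltage-gated calcium and sodium channel genes 0.02 over 22, with 0 called. Groups did not overlap with Fyn-null higher in 20.0% of the potassium channel genes and lower in 3.33%, and in 0 of the others. The paper's own PFC genes (20 measured) had a median of 0.06 and 0 called by the best expressed probe set. The study chose them partly on these samples, largely for other comparisons. Those were differences after saline, responses to ethanol within a genotype, and correlations across other mouse lines. It reported them in both directions, so that their median does not bear on its account. They ran from -0.37 (Bdnf) to 0.49 (Grin2b).

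Of the 485 listed genes that were measured 3 were called (0.619%), beside 0.519% of all genes. Nptx2, a pentraxin that neurons secrete with activity to cluster AMPA receptors, was 8.14, 8.31 and 8.20 in control and 7.61, 7.61 and 7.77 in Fyn-null pools, and fell by 0.55 on the log2 scale (standard error 0.091, adjusted p = 0.0348, limma). It was the 1 called gene of 24 immediate early and activity genes, whose median was -0.07. Bdnf was -0.37, Fos -0.25 and Arc -0.36, and Jun was 0.29, none of them called. Aldh1a1, an aldehyde dehydrogenase that oxidizes acetaldehyde and retinal, was 7.34, 7.37 and 7.16 in control and 7.76, 7.84 and 7.84 in Fyn-null pools, and rose by 0.52 (adjusted p = 0.0424). It was the 1 called gene of 17 in alcohol, aldehyde and peroxide metabolism. There catalase (Cat), which also oxidizes ethanol in brain, was 0.21 by its brighter probe set and 0.64 by the other, neither called. Aldh2 was -0.04. The third was Cdhr1, counted among genes of the olfactory bulb, whose other 9 measured members were not called. Of these 3 called genes, Cdhr1 alone stayed called without each ethanol pool in turn. Glucocorticoid-responsive, circadian, heat shock, oxidative phosphorylation, interferon-stimulated and MHC genes, excitatory layer, interneuron, striatal and choroid plexus genes had medians between 0.0013 and 0.11 apart from glucocorticoid-responsive genes at -0.01, with 0 called in each. Of the 12 striatal genes, groups did not overlap with Fyn-null lower in 4 (33.3%, beside 4.94% of all genes) and higher in 2 (16.7%, beside 16.0%). Of the 18 circadian genes they did so with Fyn-null higher in 5 (27.8%) and lower in 1 (5.56%).

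**Figure D5:**
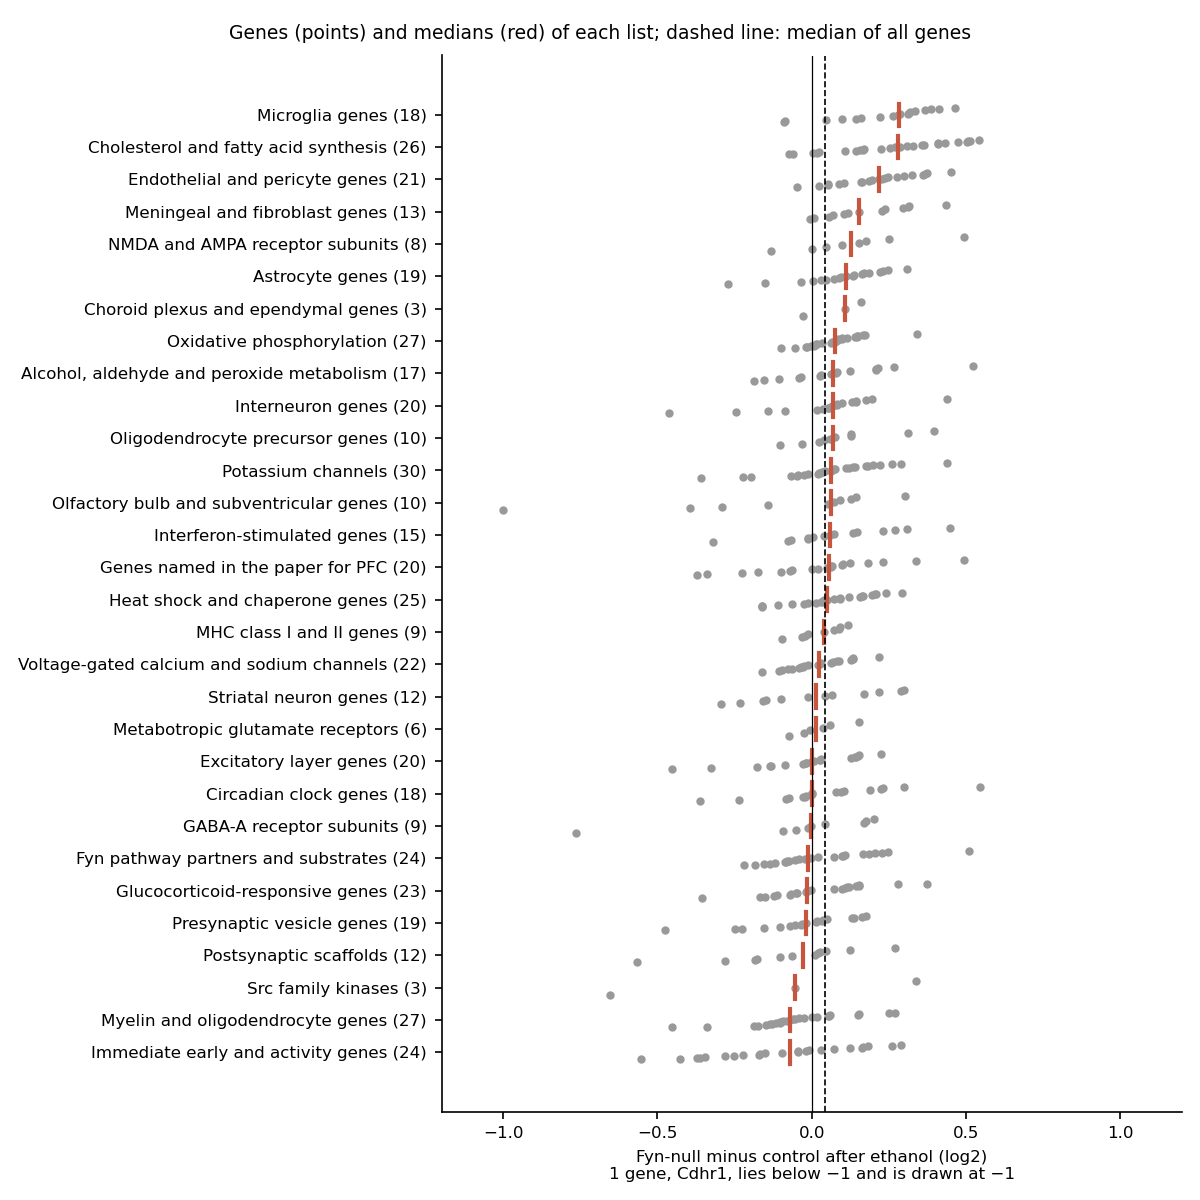
Log2 difference between Fyn-null and control pools after ethanol for each measured gene (grey points) of the 30 lists with 3 or more measured genes, with the median of each list (red) and of all genes (dashed line, 0.044). The number of measured genes stands beside each name, and microglia, cholesterol synthesis and endothelial genes have the highest medians (0.28, 0.28 and 0.22).

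The genes that neighbour Fyn on its chromosome were of interest because a targeted allele carries linked sequence of its strain of origin. Of the 100 RefSeq genes on each side, 105 were measured, with a median of 0.05, and 1 was called (0.952%, beside 0.519% of all genes). This was Moxd1, the 60th on one side, a monooxygenase gene. Moxd1 was 5.95, 6.03 and 5.95 in control and 6.45, 6.48 and 6.54 in Fyn-null pools, and rose by 0.51 (standard error 0.081, adjusted p = 0.0306, limma). It lost its call without 1 or more of the ethanol pools. Spock2, a matrix proteoglycan gene at the outer end of the other side, was -0.51 by a dim probe set (adjusted p = 0.0459) and -0.29 by its brighter one, which did not pass.

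The difference between the genotypes was then set beside the same difference without ethanol. The 193 probe sets were called without the saline pools, which had entered the filter on low values. Over the 6 saline pools as labelled, 171 of the 193 (88.6%) had the same sign as after ethanol, beside 59.4% of all probe sets, and the saline difference was a median of 0.269 times that after ethanol. The 2 saline pools of doubtful label had values of the other genotype for Fyn and for these same probe sets, so that leaving them out favours likeness. Without both, 189 of the 193 (97.9%) had the same sign, beside 58.6% of all probe sets, and the ratio was 0.743. After saline 0 probe sets were called by limma with all 6 pools (338 at an unadjusted p under 0.05) and 27 without both, of which 16 were among the 193, all in the same direction. Gdpd3 was -0.46 over the 6 saline pools and -2.16 without both, Palm2 -0.68 and -1.61, Krt12 -0.35 and -1.56, and Rpgrip1 0.36 and 0.78.

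Some genes differed little between the saline groups on either count. Mctp1 was -0.08 with all saline pools and -0.06 without both, beside -0.91 after ethanol, and Pyroxd2 was -0.03 and 0.22, beside 1.12. Mamdc2 was 0.04 and 0.23, beside 0.77. The test of the difference itself, the interaction of genotype and treatment in limma over all 12 pools, called 0 of 24770 probe sets, with 1023 (4.13%) at an unadjusted p under 0.05, and without both pools it called 0, with 1091 (4.40%). For Pyroxd2 the interaction was 1.15 (standard error 0.19, unadjusted p = 5.3e-05, adjusted p = 0.992), for Mctp1 -0.83 (unadjusted p = 0.000675) and for Mamdc2 0.73 (unadjusted p = 0.000665), but these were picked for their difference after ethanol and none passed. A difference between the genotypes that arose with ethanol could thus not be told from one that was there without it.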

How the data were processed

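The authors had summarised each array to log2 values with RMA (affy package, per the submitters' processing notes, with no version named). Their Methods describe a supervised random order of the arrays, checks in GeneChip Operating Software and a step against hybridization batch effects. They do not say if the deposited log2 values include that step. S-scores, which start from probe-level intensities, were left out. No value was missing (0), and the range was 1.62 to 14.0. Control probe sets (64) and the 45% of the other 45037 with the lowest mean over all 12 arrays were left out. By the platform's annotation 34945 probe sets had 1 symbol, 932 several and 9160 none, and 34741 matched a RefSeq gene (assembly GRCm38.p6, used for names and gene order only). A gene was represented by its brightest probe set over all arrays.

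The 6 ethanol arrays were fitted in limma 3.58.1 (R 4.3.3, lmFit and eBayes) with 2 group means, after a check on simulated data. Saline differences and the interaction came from fits of the saline arrays and of all 12. Named were all probe sets of Fyn, the 15 largest rises and falls with non-overlapping groups among called genes, up to 3 genes of each of 31 lists by p, every gene the paper names for PFC, and called neighbours of Fyn (100 genes each side). Members of lists beyond these were added after their values were seen. The genes, lists and tests were chosen with earlier results of these data known. The sample labels give 24 mice per genotype, the Methods 18, and p-values measure the spread between pools. Replicate numbers were not treated as pairs, as the groups share only numbers 1 and 2 (residual correlations 0.19 and 0.1). Alternatives were other filters, a further quantile normalization, eBayes with trend and robust, arrayWeights, the replicate number as a block, all 12 arrays, leaving out each ethanol array, averaging the probe sets of a gene and, chosen after the data were seen, 10 arrays without replicate 2 of control saline and replicate 4 of Fyn-null saline.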

Additional observations from a re-analysis of the deposited data

How the results depend on the processing

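The number of probe sets called between the ethanol groups (193) was 231 with no filter, 164 with a filter of 60%, 218 after a further quantile normalization, 285 with eBayes trend and robust (157 higher) and 260 in 10 arrays without the doubtful saline pools, where 160 of the 193 stayed called. It was 0 with all 12 arrays in the fit, for rises, falls, genes and listed genes alike, although 191 of the 193 had an unadjusted p under 0.05 there. With arrayWeights, whose fit stopped before it converged, it was 3262 (2021 higher, 1241 lower). With the replicate block it was 1250 (442 higher, 808 lower) in the 6 ethanol arrays and 0 in all 12, for rises, falls, genes and listed genes alike, and the numbers do not establish pairs. Without each ethanol pool in turn it ranged from 36 to 512, rises from 4 to 183 and falls from 25 to 329, and 23 probe sets, among them those of 17 genes with a symbol, stayed called throughout.

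The 64 called genes were 103 with trend and robust, 1384 with arrayWeights, 312 with the replicate block in 6 arrays, 167 with the mean of all probe sets, 98 in 10 arrays, and 9 to 126 without each pool. Called genes in lists (3) were 7 with the 60% filter or quantile normalization, 12 with trend and robust, 90 with arrayWeights, 23 with the replicate block in 6 arrays, 17 with the mean of all probe sets, 11 in 10 arrays, and 1 to 7 without each pool. With the mean of all probe sets, Kcnj9 turned to -0.39 and Xaf1 to -0.71, each passing. Of the 33 named genes that were called, 10, 10 and 9 stayed called without Fyn-null ethanol replicates 1, 2 and 3, and 28, 21 and 33 without control ethanol replicates 1, 2 and 4. The interaction stayed at 0 calls and the count of same signs after saline was 171 or 189. With 3 pools a group, uncalled differences of the sizes seen in the lists could not be told from 0 gene by gene. The causes were not tested.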
